A study of Mus musculus with 15 samples.

Results

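The genes described here are 10 transcription regulators and RNA-binding proteins of pluripotent cells: Pou5f1, Sox2, Sall4, Sall1, Utf1, Lin28a, Lin28b, Zfp281, Zscan10 and Tcf3. They were chosen by name, and each matched 1 row among the 52636 Ensembl identifiers of the mouse count table. All 10 passed the filter on low counts, and the lowest count of any of them in any library was 52. Tcf3 was matched by its current symbol, which belongs to the gene of an E-protein of the helix-loop-helix family. Much of the literature on pluripotency uses the name Tcf3 for Tcf7l1, a different gene, whose values are therefore given as well.

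RNA sequencing was done on 15 samples of epiblast-like cells (EpiLCs), an in vitro counterpart of the early postimplantation epiblast. They came from CRAFR26, a mouse embryonic stem cell line that carries a c-RAF kinase construct, so that 4-hydroxytamoxifen (4OHT) switches on MEK and ERK. The cells had passed through a stage the labels name RSC and were then held for 48 h in N2B27 medium with bFGF at 12 ng/ml, Activin A at 20 ng/ml and the Wnt pathway inhibitor XAV939 at 1 µM. All groups shared the construct and 2 h of the FGF receptor inhibitor PD17 at 250 nM. The 0h group (n = 3) received no 4OHT, the 2h and 4h groups (n = 4 each) received 250 nM 4OHT for 2 h or 4 h, and the rev group (n = 4) received 4OHT for 4 h with a MEK inhibitor for a further 2 h. No group had 4OHT for the same total time as rev without the MEK inhibitor, and no group had 4OHT without the construct. Clones 4 and 8 of the line, 2 in all, were sampled. Clone 4 gave 1 of the 0h libraries and clone 8 gave 2, and each other group held 2 libraries of both clones. No label says that the 2 libraries of a clone came from separate cultures, so the p-values measure the spread between these samples, which may be partly technical.

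OCT4, the product of Pou5f1, is a POU-domain factor, and SOX2 is an HMG-box factor. The pair binds DNA side by side at many enhancers active in pluripotent cells, and both are kept through the naive, formative and primed states, while factors of the naive state are lost. SALL4 and its relative SALL1 are zinc finger proteins that bring the NuRD chromatin complex to DNA. UTF1 is a chromatin-bound protein encoded by a classical target gene of OCT4 and SOX2. LIN28A and LIN28B are RNA-binding proteins that block the maturation of let-7 microRNAs. ZFP281 and ZSCAN10 are zinc finger factors of the same network, and E-proteins are helix-loop-helix factors that ID proteins hold in check. ERK signalling is known to move cells out of the naive state.

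The upstream sequences of 3 of these genes are shown because their transcripts took 3 different courses: Sox2 rose during induction, Pou5f1 fell, and Utf1 fell and then rose. Each is the 250 bases before the RefSeq start (GRCm38.p6, all on the plus strand), written 5′ to 3′. Capitals mark matches on either strand to the motifs listed after them. The sequences lie at chr3:34649745-34649994 for Sox2, chr17:35505782-35506031 for Pou5f1 and chr7:139943606-139943855 for Utf1. The gene positions given further below come from another annotation, whose starts differ from the RefSeq starts. By that annotation the windows of Utf1 and Pou5f1 run into the gene (starts 139943789 and 35506018), so matches near their ends can lie inside it. The window of Sox2 ends before the gene start (34650405).
Sox2: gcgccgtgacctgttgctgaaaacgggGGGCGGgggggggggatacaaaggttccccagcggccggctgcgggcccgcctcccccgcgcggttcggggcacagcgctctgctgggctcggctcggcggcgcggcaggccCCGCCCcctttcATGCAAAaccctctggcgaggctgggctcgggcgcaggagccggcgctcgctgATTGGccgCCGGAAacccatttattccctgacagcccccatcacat
Pou5f1: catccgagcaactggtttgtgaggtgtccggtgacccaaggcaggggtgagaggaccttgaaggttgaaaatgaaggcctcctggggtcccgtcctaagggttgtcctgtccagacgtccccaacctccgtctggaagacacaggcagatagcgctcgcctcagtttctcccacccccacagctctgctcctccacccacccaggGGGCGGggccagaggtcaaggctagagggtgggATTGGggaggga
Utf1: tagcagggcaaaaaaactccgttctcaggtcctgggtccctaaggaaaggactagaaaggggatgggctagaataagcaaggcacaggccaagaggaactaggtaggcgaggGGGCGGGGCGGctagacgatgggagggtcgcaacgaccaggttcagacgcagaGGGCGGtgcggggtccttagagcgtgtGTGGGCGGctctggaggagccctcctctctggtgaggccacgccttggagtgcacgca

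A window was on hand for 9 of the 10 members, and Sall4 was not searched. The search covered 8 short motifs on both strands: GGGCGG for the GC box, CCAAT for the CCAAT box, TATAAA for the TATA box, GTGGGCG for EGR factors, CCGGAA for ETS factors, TGACTCA for AP-1, CATTGT for SOX factors and ATGCAAA for the core of the octamer that OCT4 recognises. The EGR motif shares letters with the GC box, and the matches can overlap. Sox2 held 2 GC boxes, 1 CCAAT box, 1 ETS motif and 1 octamer core. The same windows of all 32851 RefSeq promoters held an octamer core in 4.12%, an ETS motif in 12.0%, a CCAAT box in 33.8% and a GC box in 32.7%. The window of Pou5f1 shown above held 1 GC box and 1 CCAAT box, and Utf1 held 4 GC boxes and 1 EGR motif, which 7.02% of all promoters held. The window of a second RefSeq start of Pou5f1 held 1 CCAAT box and 1 SOX motif but no GC box. Among the other members, Tcf3 held 1 EGR motif and 1 ETS motif, and Lin28a held 1 SOX motif, a motif found in 10.7% of promoters. A TATA box (12.4% of promoters) and an AP-1 motif (4.46%) were not found in the first listed window of any of these 9 members. These matches describe letters in a window and say nothing about binding.

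The deposited values were raw read counts per gene. Levels are given as CPM, counts relative to library size after TMM scaling, a method that sets the bulk of genes to no change. A change is a log2 fold change from the edgeR quasi-likelihood model with its standard error (SE). A gene is called when its Benjamini-Hochberg adjusted p over 13451 tested genes is under 0.05, and all adjusted p-values below come from that test. In bulk RNA, fewer cells expressing a gene and less of its RNA per cell cannot be told apart. The total count lay between 1552022 and 6658950 in the 4h libraries and between 8667880 and 13004556 in the others. Mitochondrial genes took 7.21 to 12.4% of the counts at 4h, 2.67 to 3.84% at 0h, 2.78 to 6.98% at 2h and 3.43 to 6.66% in rev. Every result that involves 4h therefore rests on the libraries with the lowest depth and the highest mitochondrial share. The called changes of members that involve 4h stayed called when all libraries were thinned to the smallest. They also stayed called without the 20 most abundant and mitochondrial genes. What lay behind the higher mitochondrial share, and its part in the results, was not tested.

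The induction was checked with 2 ERK target genes. Spry4, a feedback inhibitor of the pathway, rose by a log2 fold change of 6.51 (SE 0.185, adjusted p = 9.67e-17) from 0h to 2h and fell by 2.26 (SE 0.128, adjusted p = 6.01e-11) from 4h to rev. Dusp6, an ERK phosphatase, rose by 5.37 (SE 0.400, adjusted p = 1.83e-05) and fell by 1.44 (SE 0.299, adjusted p = 0.00393) in the same comparisons. From 2h to 4h, without the MEK inhibitor, Spry4 fell by 0.42 (SE 0.121, adjusted p = 0.00927) and Dusp6 by 1.49 (SE 0.295, adjusted p = 0.00221). In rev both stayed above 0h, Spry4 by 3.84 (SE 0.171, adjusted p = 1.54e-12) and Dusp6 by 2.45 (SE 0.357, adjusted p = 0.00144). Markers of EpiLCs were present in every library. The summed level of 7 of them (Fgf5, Otx2, Pou3f1, Dnmt3a, Dnmt3b, Lef1 and Sox3) was 1373 to 1587 CPM at 0h, 1270 to 1456 at 2h, 780 to 888 at 4h and 1118 to 1279 in rev. Most of the sum was Dnmt3b (mean 935 CPM at 0h and 416 at 4h) and Dnmt3a (329 and 222), while Otx2 (12.3 and 25.1) and Lef1 (30.3 and 67.3) had higher means at 4h. The 8 naive markers summed to 20.9 to 29.3 CPM at 0h, 26.1 to 31.2 at 2h, 62.7 to 216 at 4h and 28.4 to 39.1 in rev. The 4 neural markers summed to 3.24 to 5.45 CPM at 0h, 3.52 to 4.33 at 2h, 37.9 to 50.8 at 4h and 7.68 to 10.9 in rev, at 4h mostly Sox1 and Pax6, and Neurog2 had no count at 4h. The sums of primitive endoderm (6 genes), mesendoderm (5), trophoblast (4) and fibroblast feeder markers (5) reached at most 7.43, 11.6, 7.94 and 17.1 CPM, and the feeder marker Postn had no count in any library.

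Before induction the 10 genes spanned more than an order of magnitude in level per kilobase of exon. At 0h, in CPM per kb (mean, SD, n = 3), Utf1 stood highest at 92.1 ± 16.8, then Pou5f1 at 74.7 ± 7.45 and Lin28a at 44.3 ± 6.51. Sall4 (28.8 ± 1.66), Zscan10 (28.1 ± 1.72), Sall1 (19.9 ± 1.04) and Tcf3 (18.4 ± 3.05) followed, and Sox2 (10.9 ± 0.676), Zfp281 (9.55 ± 1.17) and Lin28b (4.07 ± 0.122) stood lowest. The ranges of Utf1 and Pou5f1, of Sall4 and Zscan10, of Sall1 and Tcf3, and of Sox2 and Zfp281 overlapped. Within each 0h library Utf1 stood above Pou5f1 and Sox2 above Zfp281. The order of Sall4 and Zscan10, and that of Sall1 and Tcf3, differed between libraries. None of these orders was tested. At 4h the order had changed. Utf1 was still highest (95.8 ± 13.8, n = 4), but Sox2 (54.1 ± 14.7) now stood beside Pou5f1 (44.0 ± 2.46) and Sall1 (43.7 ± 5.46), and the libraries of these last 3 overlapped. Lin28a (36.0 ± 1.86), Sall4 (32.6 ± 8.56), Zscan10 (25.3 ± 5.50), Zfp281 (18.5 ± 2.81) and Tcf3 (15.4 ± 1.79) came next, each overlapping its neighbour, and Lin28b (3.40 ± 0.955) stayed lowest. These lengths are the union of annotated exons, so a gene whose long isoforms are not used in these cells is understated.

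**Figure D1:**
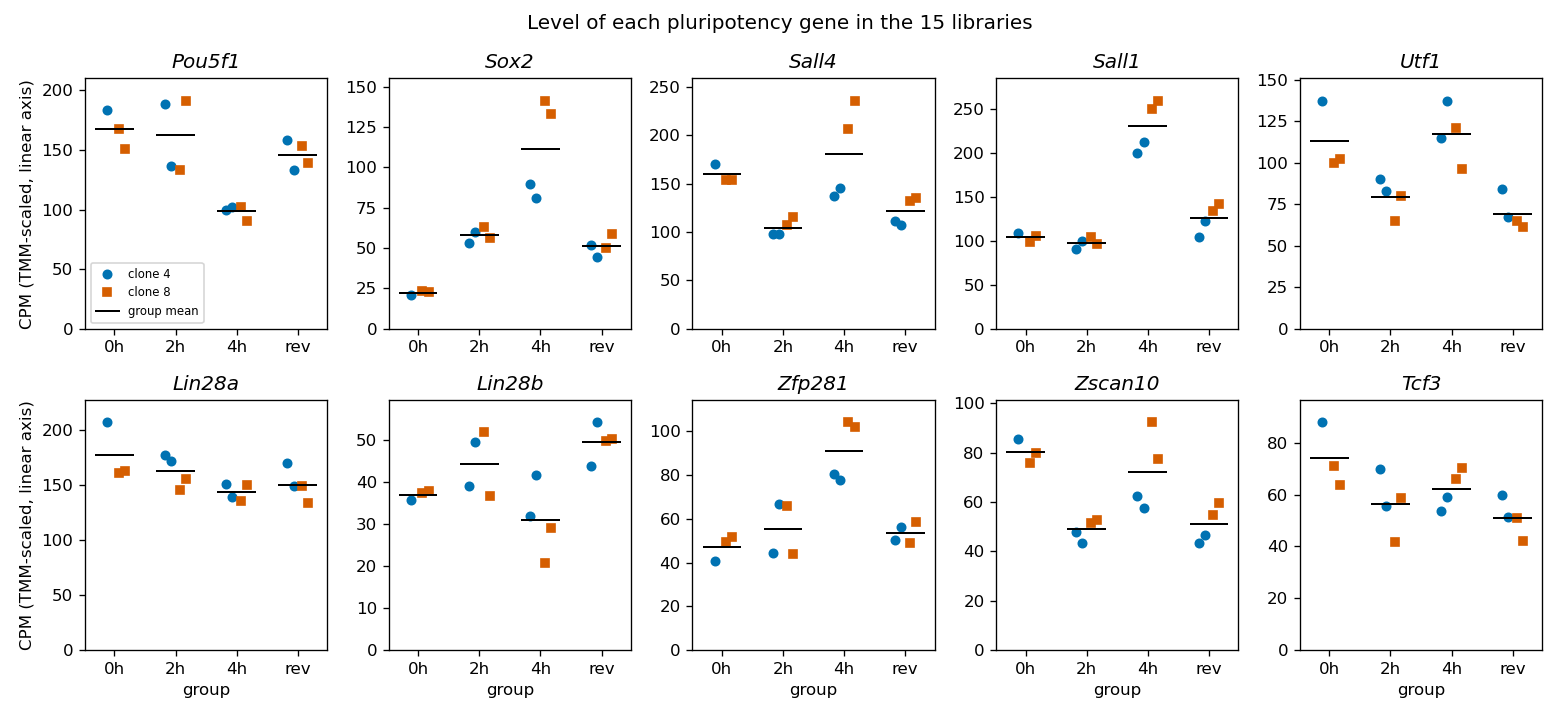
Level of each of the 10 genes in CPM (linear axes that start at 0) in the 15 libraries, by group, with clone 4 as circles, clone 8 as squares and the group mean as a line. Sox2 lies between 20.8 and 23.5 CPM at 0h and between 81.0 and 141 at 4h, while Pou5f1 lies between 151 and 184 at 0h and between 90.8 and 102 at 4h.

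Sox2 (ENSMUSG00000074637, chromosome 3, 34650405 to 34652461 on the plus strand in GRCm38) was the member with the largest change. Its level was 20.8 CPM in clone 4 and 23.5 and 22.8 in clone 8 at 0h. At 2h it was 53.2 and 60.2 in clone 4 and 62.8 and 56.0 in clone 8, and at 4h it was 89.8 and 81.0 in clone 4 and 141 and 133 in clone 8. Each 2h library stood above each 0h library, and each 4h library above each 2h library. In rev it was 51.9 and 44.5 in clone 4 and 50.2 and 58.7 in clone 8, below every 4h library and above every 0h library. The log2 fold change was 1.43 (SE 0.129, adjusted p = 2.38e-07) in 2h vs 0h and 0.91 (SE 0.115, adjusted p = 2.67e-06) in 4h vs 2h. From 0h to 4h it summed to 2.34 (SE 0.133, adjusted p = 4.18e-11). With the MEK inhibitor Sox2 fell by 1.09 on the log2 scale (SE 0.115, adjusted p = 4.26e-07), yet rev stayed 1.24 above 0h (SE 0.128, adjusted p = 2.18e-06). Sox2 lies within the locus of the noncoding gene Sox2ot and shares no annotated exon with it.

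Pou5f1 (ENSMUSG00000024406, chromosome 17, 35506018 to 35510772, plus strand) took the opposite course and took it later. At 0h its level was 184 CPM in clone 4 and 168 and 151 in clone 8. At 2h it was 189 and 137 in clone 4 and 133 and 191 in clone 8, a range that enclosed the 0h values. No 2h library lay within the 0h range. The 2h libraries at 137 and 133 CPM had mitochondrial shares of 6.98% and 6.03%, and those at 189 and 191 had 2.78% and 3.25%. Whether that share and the level of Pou5f1 are linked was not tested. At 4h the libraries were close together, at 100 and 102 in clone 4 and 102 and 90.8 in clone 8, and all lay below every 0h and 2h library. In rev the level was 158 and 133 in clone 4 and 153 and 139 in clone 8, above every 4h library and overlapping 0h. The log2 fold change in 2h vs 0h was -0.05 (SE 0.118, adjusted p = 0.838), with an approximate 95% interval from -0.29 to 0.18. Pou5f1 fell by 0.72 from 2h to 4h (SE 0.110, adjusted p = 3.03e-05) and by 0.77 from 0h to 4h (SE 0.118, adjusted p = 3.09e-05). It rose by 0.56 from 4h to rev (SE 0.110, adjusted p = 0.000583), and rev vs 0h gave -0.21 (SE 0.118, adjusted p = 0.258). An antisense gene, Gm19553, covers 317 bases (14.1%) of the exons of Pou5f1, and the handling of strand in the counting is not given in the sources used here, so some of these reads could come from it.

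The ratio of Sox2 to Pou5f1 reads within a library does not depend on how libraries are scaled. It was chosen, with 2 other ratios, after the levels had been seen. There were 0.113, 0.139 and 0.151 Sox2 reads per Pou5f1 read at 0h, and 0.282 to 0.472 at 2h. At 4h the ratio was 0.896 and 0.790 in clone 4 and 1.37 and 1.47 in clone 8, and in rev it was 0.328 to 0.422. The mean rose from 0.134 ± 0.0196 (SD, n = 3) at 0h to 0.371 ± 0.0978 (n = 4) at 2h and 1.13 ± 0.339 (n = 4) at 4h, and was 0.354 ± 0.0457 (n = 4) in rev. On the log2 scale the ratio was 3.04 higher at 4h than at 0h, an 8.20-fold change, and 1.64 lower in rev than at 4h. All 4h libraries stood above all others, and the 2h and rev libraries overlapped. The exact two-sided permutation test gave p = 0.0571 for 4h vs 0h and p = 0.0286 for rev vs 4h, the smallest values that 4 against 3 and 4 against 4 samples allow. Adjusted over the 15 tests of the 3 ratios, both became 0.0714, so no comparison of ratios could pass the threshold. A ratio of reads is not a ratio of molecules, because the transcripts differ in length.

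**Figure D2:**
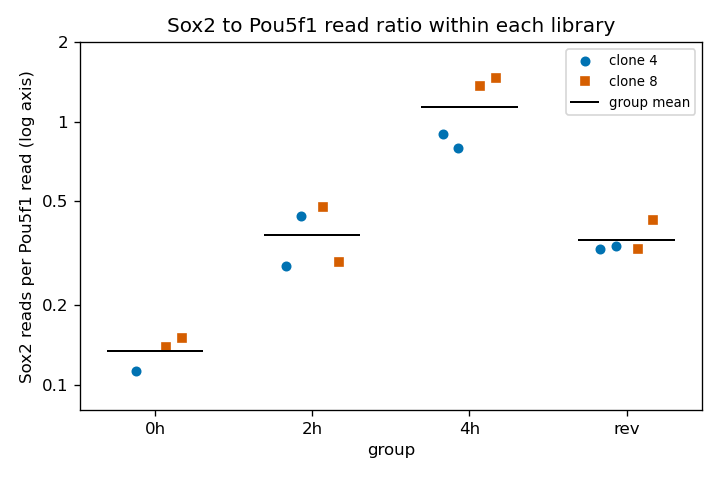
Sox2 reads per Pou5f1 read in each of the 15 libraries on a log axis, by group, with clone 4 as circles, clone 8 as squares and the group mean as a line. The ratio lies between 0.113 and 0.151 at 0h, between 0.790 and 1.47 at 4h and between 0.328 and 0.422 in rev.

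Sall4 (ENSMUSG00000027547, chromosome 2, 168748332 to 168767943, minus strand) fell first and then rose. Its level was 170 CPM in clone 4 and 154 and 154 in clone 8 at 0h, and 97.8, 98.0, 107 and 115 at 2h in the order clone 4, clone 4, clone 8, clone 8. At 4h it was 137 and 145 in clone 4 and 206 and 235 in clone 8. Every 2h library lay below every 0h and every 4h library, and at 4h the clones lay on opposite sides of 0h. In rev the level was 111 and 107 in clone 4 and 132 and 135 in clone 8. Sall4 fell by 0.58 from 0h to 2h (SE 0.113, adjusted p = 0.00275), rose by 0.77 from 2h to 4h (SE 0.106, adjusted p = 7.99e-06) and fell by 0.56 from 4h to rev (SE 0.106, adjusted p = 0.000386). Without the only clone 4 library of 0h, the fall to 2h was -0.37 and no longer called (adjusted p = 0.107). The level in rev was 0.37 below 0h by the model (SE 0.113, adjusted p = 0.0385), a call that was lost in 8 of 17 alternatives. These were the replicate block (-0.35, adjusted p = 0.0665), the fit without the clone term (-0.40, adjusted p = 0.122), total count scaling (-0.71, adjusted p = 0.105), leaving out the clone 4 library of 0h (-0.17, adjusted p = 0.484) and leaving out any 1 of the 4 rev libraries (adjusted p between 0.0615 and 0.0949). Gm14261 lies antisense to 526 bases (9.5%) of its exons.

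Sall1 (ENSMUSG00000031665, chromosome 8, 89027235 to 89044162, minus strand) did not follow Sall4 at 2h. It had 98.5 to 109 CPM at 0h and 91.2 to 104 at 2h, overlapping ranges, and 200 and 212 in clone 4 and 250 and 259 in clone 8 at 4h. In rev it had 104 and 123 in clone 4 and 134 and 142 in clone 8. The 4h libraries thus stood apart from all others. The log2 fold change in 2h vs 0h was -0.07 (SE 0.0963, adjusted p = 0.737), with an interval from -0.26 to 0.12. Sall1 rose by 1.22 from 2h to 4h (SE 0.0904, adjusted p = 1.45e-09) and fell by 0.87 from 4h to rev (SE 0.0897, adjusted p = 3.12e-07). In rev vs 0h it gave 0.28 (SE 0.0967, adjusted p = 0.0613). Clone 8 alone was called there (0.43, SE 0.112, adjusted p = 0.0283), and clone 4, with 1 library at 0h, gave 0.06. A joint test of the clone difference over all steps from 0h did not call Sall1 (adjusted p = 0.553). The ratio of Sall1 to Sall4 reads was 0.657 ± 0.0283 (SD, n = 3) at 0h, 0.944 ± 0.0796 (n = 4) at 2h, 1.31 ± 0.179 (n = 4) at 4h and 1.04 ± 0.0934 (n = 4) in rev. Each 2h, 4h and rev library held a higher ratio than each 0h library (exact permutation p = 0.0571, adjusted p = 0.0714 in each of the 3 comparisons).

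Utf1 and Zscan10 shared the early fall of Sall4. Utf1 (ENSMUSG00000047751, chromosome 7, 139943789 to 139945112, plus strand) had 137 CPM in clone 4 and 99.7 and 102 in clone 8 at 0h. It had 90.2 and 82.9 in clone 4 and 64.7 and 79.8 in clone 8 at 2h, and 115, 137, 121 and 96.1 at 4h. In rev it had 84.2 and 67.0 in clone 4 and 64.6 and 61.1 in clone 8. All 2h and rev libraries lay below all 0h and all 4h libraries, and the 0h and 4h ranges overlapped. Utf1 fell by 0.55 from 0h to 2h (SE 0.107, adjusted p = 0.00275), rose by 0.57 from 2h to 4h (SE 0.10, adjusted p = 0.000131) and fell by 0.77 from 4h to rev (SE 0.101, adjusted p = 6.32e-06). It ended 0.75 below 0h on the log2 scale (log2 fold change -0.75, SE 0.107, adjusted p = 8.37e-05). The early fall of Utf1 was not called without the clone 4 library of 0h (-0.48, adjusted p = 0.0522), without the clone term (-0.51, adjusted p = 0.0620) or after thinning all libraries to the smallest (-0.44, adjusted p = 0.0662).

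Zscan10 (ENSMUSG00000023902, chromosome 17, 23600856 to 23611019, plus strand) had 75.7 to 85.5 CPM at 0h and 43.4 to 52.8 at 2h. At 4h it had 62.3 and 57.5 in clone 4 and 92.2 and 77.3 in clone 8, and in rev 43.2 and 46.6 in clone 4 and 54.8 and 59.7 in clone 8. The 4h range enclosed the 0h range, and the rev libraries lay below all 0h libraries. Zscan10 fell by 0.69 from 0h to 2h (SE 0.113, adjusted p = 0.000471), rose by 0.55 from 2h to 4h (SE 0.107, adjusted p = 0.000319), fell by 0.50 from 4h to rev (SE 0.106, adjusted p = 0.00119) and ended below 0h with -0.63 (SE 0.113, adjusted p = 0.000783).

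Zfp281 (ENSMUSG00000041483, chromosome 1, 136624901 to 136630053, plus strand) rose late. It had 40.7 to 51.6 CPM at 0h and 44.0 to 66.6 at 2h, and the change between these groups was not called (0.26, SE 0.143, adjusted p = 0.306). At 4h it had 80.6 and 77.8 in clone 4 and 104 and 102 in clone 8, above all other libraries, and in rev 49.1 to 58.3. It rose by 0.72 from 2h to 4h (SE 0.132, adjusted p = 0.000209) and fell by 0.76 from 4h to rev (SE 0.132, adjusted p = 0.000167), and rev vs 0h gave 0.22 (SE 0.143, adjusted p = 0.348).

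The LIN28 genes are described together. Lin28a (ENSMUSG00000050966, chromosome 4, 134003330 to 134018841, minus strand) had the smallest ratio of its highest to its lowest library, with 161 to 207 CPM at 0h, 146 to 177 at 2h, 136 to 151 at 4h and 134 to 170 in rev. It fell by 0.32 from 0h to 4h (SE 0.0881, adjusted p = 0.00678), a call that rested on the clone 4 library of 0h (-0.24, adjusted p = 0.0808 without it), and no other comparison of groups called it. Lin28b (ENSMUSG00000063804, chromosome 10, 45376620 to 45486395, minus strand), the paralog with the lowest level, had 35.7 to 37.8 CPM at 0h and 36.7 to 51.8 at 2h. It had 31.8 and 41.7 in clone 4 and 20.7 and 29.0 in clone 8 at 4h, from counts of 52 to 169, and 43.7 to 54.1 in rev. Lin28b fell by 0.53 from 2h to 4h (SE 0.152, adjusted p = 0.00838), although these ranges overlapped, and rose by 0.69 from 4h to rev (SE 0.152, adjusted p = 0.00164). The ratio of Lin28b to Lin28a reads was 0.212 ± 0.0343 (SD, n = 3) at 0h, 0.214 ± 0.0624 (n = 4) at 4h and 0.332 ± 0.0530 (n = 4) in rev, where each library was above each 0h library (exact permutation p = 0.0571, adjusted p = 0.0714). At 2h it was 0.275 ± 0.0606 (n = 4), and 4h vs 2h gave an exact permutation p of 0.171 (adjusted p = 0.198). No comparison of ratios could pass the threshold with this number of samples, so these tests cannot decide whether the courses of these 2 genes differ. Gm13061 lies antisense to 234 bases (5.86%) of the exons of Lin28a.

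Tcf3 (ENSMUSG00000020167, chromosome 10, 80409514 to 80433647, minus strand) had 63.7 to 87.8 CPM at 0h, 41.7 to 70.0 at 2h, 53.8 to 70.1 at 4h and 42.0 to 59.7 in rev. Among the comparisons over both clones, only rev vs 0h was called for it (-0.56, SE 0.141, adjusted p = 0.0121), with all rev libraries below all 0h libraries. That call was lost without the clone 4 library of 0h (-0.46, adjusted p = 0.138) and without the second clone 8 library of rev (-0.49, adjusted p = 0.0608). Tcf7l1, the repressor often called Tcf3, had 49.7 ± 9.07 CPM (SD, n = 3) at 0h, 44.8 ± 4.12 (n = 4) at 2h, 65.9 ± 17.3 (n = 4) at 4h and 37.1 ± 1.79 (n = 4) in rev. At 4h Tcf7l1 had 45.8 and 58.5 CPM in clone 4, below the single 0h library of that clone (59.3). In clone 8 it had 74.0 and 85.2, above the 41.3 and 48.6 of 0h. That difference between the clones was not tested. Over both clones Tcf7l1 rose by 0.41 from 0h to 4h (SE 0.157, adjusted p = 0.0434) and fell by 0.83 from 4h to rev (SE 0.146, adjusted p = 0.000219). The 2 genes that share this name therefore differed in which comparisons were called, and the difference between them was not tested.

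Counted together, 1 of the 10 members rose and 3 fell from 0h to 2h, where 3.98% of all tested genes rose and 2.46% fell. From 0h to 4h, 3 rose (Sox2, Sall1 and Zfp281) and 2 fell (Pou5f1 and Lin28a), against 20.5% and 18.9% of all genes. With total count scaling this became 1 higher and 6 lower. From 2h to 4h, 6 rose and 2 fell, against 19.7% and 19.2%, and from 4h to rev, 2 rose and 6 fell, against 15.1% and 15.6%. The 2 comparisons share the 4h libraries, so their opposite signs are not independent of each other. In rev against 0h, 1 member was higher and 4 were lower, against 6.49% and 4.66% of all genes. Without 0h clone4_1, 2 members were called in 2h vs 0h, and without rev clone8_2, 3 were called in rev vs 0h. The median log2 fold change of the members was -0.11, -0.06, 0.56, -0.53 and -0.23 in these 5 comparisons, where that of all tested genes was 0.01, 0.03, -0.01, 0.02 and 0.02. With 10 members picked by name, these shares describe the members only.

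**Figure D3:**
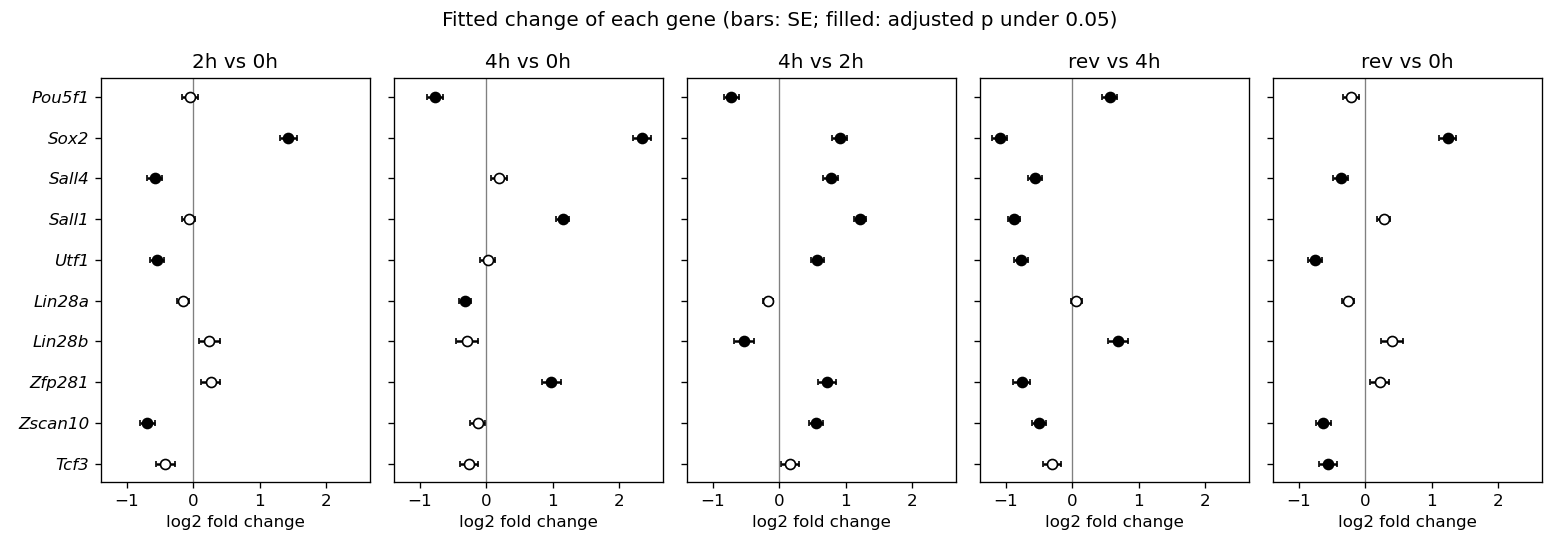
Log2 fold change of each gene in the 5 comparisons of groups, with bars for the SE and filled points where the adjusted p is under 0.05. Sox2 is the only member to the right of 0 and filled in 2h vs 0h (1.43), and Pou5f1 is open there (-0.05) and filled in 4h vs 0h (-0.77).

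TMM scaling assumes that the bulk of genes did not change. Many of these calls, among them those of 2h vs 0h except that of Sox2, were lost with scaling by total counts, which does not assume this. With scaling by total counts, the median tested gene moved by -0.18 in 2h vs 0h, -0.73 in 4h vs 0h, -0.57 in 4h vs 2h, 0.45 in rev vs 4h and -0.30 in rev vs 0h. The share of calls that were higher then went from 52.0% to 7.11% in 4h vs 0h, from 50.6% to 9.09% in 4h vs 2h, from 49.2% to 88.0% in rev vs 4h and from 58.2% to 31.9% in rev vs 0h. Of the 30 called changes of members between groups, 16 were no longer called under that scaling and none turned its sign. Some came close to 0, such as Utf1 (0.01, adjusted p = 0.967) and Zscan10 (0.03, adjusted p = 0.934) in 4h vs 2h. In 2h vs 0h only Sox2 was still called, and Sall4 (-0.78, adjusted p = 0.129), Utf1 (-0.73, adjusted p = 0.190) and Zscan10 (-0.89, adjusted p = 0.0586) were not. Each of these falls was larger than under TMM (-0.58, -0.55 and -0.69) although its call was lost. The 20 most abundant genes took 52.5 to 71.3% of the counts at 0h and 51.1 to 69.0% at 2h. In 4h vs 0h, 7 members were called, Sox2 higher and 6 lower (Pou5f1, Utf1, Lin28a, Lin28b, Zscan10 and Tcf3), while Sall1 (0.44, adjusted p = 0.175) and Zfp281 (0.27, adjusted p = 0.418) were not. Sox2 in 4h vs 0h was 1.62 there and 2.34 relative to the median gene, and Pou5f1 was -1.50 and -0.77. Values that were not called under TMM could turn, such as those of Sall4 (-0.54) and Utf1 (-0.71) in 4h vs 0h, which were 0.18 and 0.01 relative to the median gene.

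From 2h to 4h, 7 members were called in clone 4 and 9 in clone 8, where 27.3% and 26.9% of all genes were called, and from 4h to rev 7 and 9 were called, against 17.0% and 23.4%. Sox2 rose by 0.59 (SE 0.130, adjusted p = 0.00244) in clone 4 and by 1.21 (SE 0.130, adjusted p = 1.55e-06) in clone 8 from 2h to 4h. Pou5f1 fell by 0.69 (SE 0.161, adjusted p = 0.00380) in clone 4 and by 0.74 (SE 0.161, adjusted p = 0.00194) in clone 8 over the same step. Lin28b gave -0.26 (SE 0.189, adjusted p = 0.329) in clone 4 and fell by 0.84 (SE 0.190, adjusted p = 0.00299) in clone 8, and Tcf3 gave -0.15 (SE 0.161, adjusted p = 0.524) and rose by 0.44 (SE 0.160, adjusted p = 0.0472). From 4h to rev, Sox2 fell by 0.82 (SE 0.130, adjusted p = 0.000271) in clone 4 and by 1.33 (SE 0.131, adjusted p = 5.71e-07) in clone 8. From 0h to 4h, where clone 4 has 1 library at 0h, Sox2, Sall1, Zfp281, Pou5f1 and Lin28a had the same sign in both clones, and the other 5 members had opposite signs. Zscan10 fell in clone 4 (-0.51, adjusted p = 0.0144) and gave 0.13 in clone 8 (adjusted p = 0.478). Tcf3 fell in clone 4 (-0.63, adjusted p = 0.0195) and gave 0.01 in clone 8 (adjusted p = 0.963). Lin28b gave 0.05 in clone 4 (adjusted p = 0.890) and fell in clone 8 (-0.60, adjusted p = 0.0249). Utf1 gave -0.11 and 0.11 with no call in either clone.

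The differences between the clones were then tested directly. For the step from 2h to 4h no member passed, against 3.14% of all genes, and 4 had an unadjusted p under 0.05. The difference of Sox2 was 0.62 (SE 0.182, adjusted p = 0.0770) and that of Sall4 was 0.46 (SE 0.148, adjusted p = 0.115). Only leaving out the second clone 8 library of 2h gave a call there, for Tcf3 (0.85, adjusted p = 0.0407). For the step from 4h to rev no member passed either, against 2.80% of all genes, again with 4 at an unadjusted p under 0.05. The joint test over all 3 steps from 0h called Sall4 alone (adjusted p = 0.0404), where 3.18% of all genes were called. It gave an adjusted p of 0.273 for Zscan10, 0.381 for Tcf3 and 0.519 for Lin28b. In clone 4, Sall4 at 4h gave -0.27 against 0h (SE 0.127, adjusted p = 0.123), from a single 0h library, and in clone 8 it rose by 0.51 (SE 0.105, adjusted p = 0.00127). Leaving out 1 library at a time ended this joint call in 13 of 15 cases, with adjusted p between 0.0292 and 0.221 over the 15, and the cases that kept it left out a clone 8 library of 2h. Averaged over the groups, 5 members differed between clones, against 18.5% of all genes. Sox2 (0.28), Sall4 (0.27) and Zscan10 (0.26) were higher in clone 8, and Utf1 (-0.28) and Lin28a (-0.17) were lower, each with an adjusted p between 0.00914 and 0.0465. That count was 2 without 4h clone4_2, 4h clone8_1 or rev clone8_2, 3 without 2h clone4_2, 4h clone4_1, rev clone4_1 or rev clone4_2, and 0 with total count scaling. Spry4 was lower in clone 8 by 0.93 (SE 0.0946, adjusted p = 4.92e-07), and its part in these differences was not tested.

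**Figure D4:**
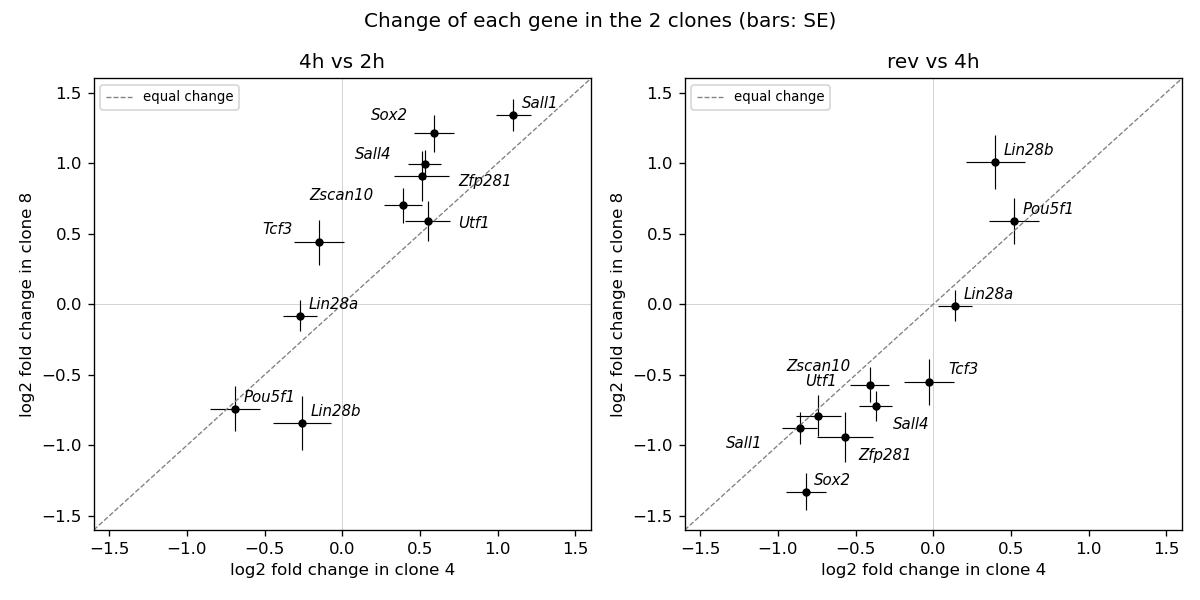
Log2 fold change of each gene in clone 4 (horizontal) and clone 8 (vertical), with bars for the SE and a dashed line of equal change, for 4h vs 2h (left) and rev vs 4h (right). Sox2 lies at 0.59 and 1.21 on the left and at -0.82 and -1.33 on the right, and Pou5f1 lies near the dashed line in both.

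Among 6238 genes with a mean of at least 10 CPM, those whose log2 CPM ran most like that of Pou5f1 over the 15 libraries were Rpl6 (Pearson r = 0.986), Rangap1 (0.980), Rpl10a (0.977), Rps14 (0.976) and Rpl8 (0.975). Among those most like Sox2 were Tet2 (0.956), Upp1 (0.943), Pecam1 (0.925) and Rest (0.915). Among the members, Pou5f1 ran opposite to Zfp281 (r = -0.96) and Sall1 (-0.90) and less so to Sox2 (-0.76), and Sall4 ran with Zscan10 (0.90). These values describe 15 libraries that fall into 4 groups, with 4h libraries that differ in depth from the rest, and carry no test.

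Genes linked to the members were read from 4 lists. Of 10 target genes of OCT4 and SOX2, 1 rose and 1 fell from 0h to 2h, 7 rose and 1 fell from 0h to 4h, and 1 rose and 8 fell from 4h to rev. Over all tested genes the shares that rose and fell were 3.98% and 2.46%, 20.5% and 18.9%, and 15.1% and 15.6% in these comparisons. The largest rises by 4h were in Fbxo15 (2.50, SE 0.341, adjusted p = 1.78e-05), Nanog (1.71, SE 0.440, adjusted p = 0.0101) and Spp1 (1.71, SE 0.252, adjusted p = 1.98e-05), and Lefty1, an inhibitor of Nodal, fell by 1.77 (SE 0.226, adjusted p = 7.39e-05). Nanog, whose product binds near OCT4 and SOX2 at many sites, had 14.0 to 14.4 CPM at 0h, 9.43 to 11.9 at 2h and 8.67 to 13.8 in rev. At 4h it had 14.1 and 19.5 CPM in clone 4 and 88.3 and 79.5 in clone 8, so the clone 4 libraries lay near 0h and the clone 8 libraries far above it. That difference between the clones was not tested. The list median was 0.98 in 4h vs 0h, where that of all genes was 0.03, and -0.94 in rev vs 4h, where it was 0.02. In rev against 0h, Trim71 stayed higher (0.96, SE 0.0877, adjusted p = 3.77e-07), and Lefty1 (-1.14), Fgf4 (-1.08) and Tdgf1 (-0.69) were lower, with adjusted p between 0.00117 and 0.0224.

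Of 14 genes of the LIN28 and let-7 axis, 9 rose and 1 fell from 0h to 4h, and none rose and 8 fell from 4h to rev, where 20.5% and 18.9%, and 15.1% and 15.6%, of all genes rose and fell. Trim71, a translational repressor that let-7 targets, had already risen by 0.86 at 2h (SE 0.0877, adjusted p = 1.41e-06), its level being 241 ± 26.3 CPM (SD, n = 3) before and 475 ± 129 (n = 4) after. Igf2bp2, an RNA-binding protein of the same axis, rose by 1.43 from 0h to 4h (SE 0.136, adjusted p = 6.94e-08). Tut4, the uridylyltransferase that LIN28A recruits to let-7 precursors, rose by 0.91 (SE 0.113, adjusted p = 2.29e-06), and Dgcr8, a part of the microprocessor, fell by 0.33 (SE 0.107, adjusted p = 0.0174). The list median in 4h vs 0h was 0.53, where that of all genes was 0.03.

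Of 20 genes for partner proteins of OCT4, SOX2 and SALL4, which include the NuRD subunits, 8 rose and 5 fell from 0h to 4h, against 20.5% and 18.9% of all genes. Their median was 0.04, close to the 0.03 of all genes. The largest rises were in Nr0b1 (2.62, SE 0.363, adjusted p = 1.23e-05), Arid1a (0.95, SE 0.0783, adjusted p = 8.71e-09) and Zfp462 (0.67, SE 0.113, adjusted p = 9.33e-05). The NuRD subunits Rbbp4 (-0.59), Mbd3 (-0.39) and Hdac2 (-0.36) fell, with adjusted p between 0.000128 and 0.0236. The other called NuRD genes of the list were chosen for mention after their values were seen. Mta2 also fell over the same step (-0.28, adjusted p = 0.0191). Mta3 (0.49, adjusted p = 0.00140), Rbbp7 (0.43, adjusted p = 0.000429) and Gatad2a (0.22, adjusted p = 0.0326) rose. In rev against 0h, 1 of these genes, Rbbp7 (0.39), was higher and 1, Ctbp2 (-0.49), was lower, against 6.49% and 4.66% of all genes.

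Of 22 POU, SOX, SALL and E-protein relatives, 20 were tested. From 0h to 2h 6 rose and 2 fell, against 3.98% and 2.46% of all genes, and from 0h to 4h 14 rose and 2 fell, against 20.5% and 18.9%. Their median in 4h vs 0h was 0.59, where that of all genes was 0.03. Id4 (3.43), Id3 (2.44) and Id2 (2.08), which encode inhibitors of E-proteins, rose at 2h with adjusted p between 1.81e-06 and 0.000594, from mean levels of 0.255 to 0.771 CPM at 0h. Sox1 rose by 3.56 from 0h to 4h (SE 0.288, adjusted p = 9.86e-09), with levels of 2.96 ± 1.51 CPM (SD, n = 3) and 32.1 ± 6.57 (n = 4) in these groups, and fell by 2.27 in rev (SE 0.241, adjusted p = 6.12e-07). Sox13 rose by 2.86 (SE 0.163, adjusted p = 4.18e-11) and remained 2.66 above 0h in rev (SE 0.160, adjusted p = 4.10e-10). Sox3, a formative relative of Sox2, fell by 1.29 from 0h to 4h (SE 0.225, adjusted p = 0.000337) and rose by 1.33 from 4h to rev (SE 0.213, adjusted p = 0.000226), against the direction of Sox2 in both steps.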

How the data were processed

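Per the submitters' processing notes, reads were made with bcl2fastq 2.19.1 and aligned with STAR 2.5.3a, and the build named is mm10. Which tool and annotation were used for counting, and whether strand was used, is not given in the sources used here. The deposited values are raw counts per gene, with no normalization by the authors seen in them. Per the labels, 1 µg of RNA was depleted of ribosomal RNA, and 1 sample of the 0h group was discarded by the authors in quality control and is not analysed here. Reads carried no molecular identifiers.

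Identifiers were matched to GENCODE M21 (GRCm38). The tests were run with edgeR 4.0.16 under R 4.3.3, using filterByExpr by group (at least 10 counts, 15 in total), TMM scaling and the robust quasi-likelihood F test, which is two-sided, with group and clone over all 15 samples. Clone differences came from a fit with 1 mean per combination of group and clone. Log values for likeness used a prior count of 2. Exact permutation tests used scipy 1.17.1. The steps were tested on simulated data. The members, lists and tests were chosen with earlier results of these data known. From each list at most 3 called genes per direction and comparison, those with the largest change and a mean of at least 1 CPM, could be named, besides Nanog and Tcf7l1. The NuRD genes marked as chosen after their values were seen go beyond this limit. Alternatives were other scalings, filters, models and tools (DESeq2 1.42.0), thinning, and leaving out each library. For likeness the 5 genes with the highest correlation were taken for Pou5f1 and for Sox2, of which 1 is not reported here.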

Additional observations from a re-analysis of the deposited data

Results flagged for a closer look

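The course of Sall4 differed between the clones in the joint test over the 3 steps from 0h (edgeR quasi-likelihood test, adjusted p = 0.0404). Clone 8 minus clone 4 was 0.32 in 2h vs 0h, 0.78 in 4h vs 0h and 0.44 in rev vs 0h on the log2 scale. The single 0h library of clone 4, at 170 CPM, enters all 3 differences, and the call was lost in 13 of 15 fits that left out 1 library. The clone 8 libraries stood above those of clone 4 at 2h, 4h and rev. No library stood apart from the other 3 of its group by Dixon's test in any of the 30 sets of 4 values (10 genes at 2h, 4h and rev), where chance flags about 1 set in 20.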

How the results depend on the processing

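The 35 called values of members were refitted under 17 to 22 alternatives each, 636 refits in all, in which 574 stayed called, 62 lost the call and 0 turned direction. With total count scaling, which lost 21 of the 35 calls, the number of members called was 1 in 2h vs 0h, 7 in 4h vs 0h, 4 in 4h vs 2h, 3 in rev vs 4h, 4 in rev vs 0h, 0 between clones and 0 in the joint course test. Thinned to the smallest library, 3 members were called between clones and 0 in the joint test, and 32 of the 35 calls held. Without the 20 most abundant and mitochondrial genes the joint count was also 0, but all 35 calls held. These 20 genes took 51.1 to 79.3% of the counts of a library. A fit of only the 2 groups compared called 8 members in rev vs 0h. Leaving out 1 library gave 2 to 5 members in 2h vs 0h (2 without the clone 4 library of 0h), 3 to 5 in rev vs 0h (3 without the second clone 8 library of rev), 2 to 5 between clones, and 0 to 1 both in the joint test and in the clone difference in 4h vs 2h. Among the comparisons of groups, the calls of Pou5f1 and those of Sox2 held in every alternative run, except that of Sox2 in 4h vs 2h with total count scaling (0.41, adjusted p = 0.195). The call of Sox2 between clones was lost in 8 of 22 alternatives. With DESeq2, with its size factors, and with an older quasi-likelihood fit chosen after seeing the data, all 35 calls held. The log2 ratio of Lin28b to Lin28a in 4h vs 0h (-0.02) ranged from -0.19 to 0.13 over its 7 leave-one-out values and turned to 0.02, 0.05, 0.06 and 0.13 in 4 of them.

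The main fit did not treat the replicate numbers as pairs. Over 9 pairs of groups within a clone, the correlation of the differences between libraries 1 and 2 lay between -0.194 and 0.261. It was above 0.1 in 1 of them, and such correlations cannot exclude a pairing. With the replicate block, 4 members were called in 2h vs 0h, 5 in 4h vs 0h, 8 in 4h vs 2h, 8 in rev vs 4h and 4 in rev vs 0h, where Sall4 was lost.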
